A study of Mus musculus with 2 samples.

Results

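The immediate-early and heat shock genes described here are 37 of the 32285 mouse genes in the count files. They were chosen by symbol and sort into 4 groups by role: 8 genes of the AP-1 family, 9 factors of the EGR, NR4A and KLF families, 12 feedback and other early-response genes, and 8 heat shock chaperones. Their UMIs (unique molecular identifiers, each standing for 1 captured RNA molecule) were compared between 2 single-cell RNA libraries of mouse ovarian tumor tissue, in 11 classes of cells. Both libraries came from female C57BL/6 mice aged 6 to 8 weeks that had received SO cells, a syngeneic ovarian cancer line with loss of p53 and with myc and Hras, into the peritoneal cavity after abrasion of the peritoneal wall. One group was given control IgG and the other an Activin A neutralizing antibody, by the intraperitoneal route, and Activin A is a secreted ligand of the TGFβ superfamily. By the labels the tissue was pooled over 7 mice with control IgG and over 8 mice with the antibody, after 10 days of treatment. For its single-cell experiment the study's text gives other numbers of mice and days, and which experiment the libraries belong to was not settled. Groups that received a TGFβ neutralizing antibody were not analysed here.

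Immediate-early genes are transcribed within minutes of a growth factor, cytokine, antigen receptor or stress signal, from factors that the cell already holds, and their mRNAs decay quickly. Many encode transcription factors (the AP-1, EGR, NR4A and KLF families), and others encode phosphatases, RNA-binding proteins and inhibitors that switch the signal off again. Heat shock genes are driven mainly by HSF1 when proteins unfold, and their products refold or hold such proteins. Both programs are also known to be switched on while tissue is taken apart. The tissue of both libraries was minced and digested with collagenase, hyaluronidase, DNase and trypsin at 37 °C for 30 minutes, and dead cells and red cells were removed. Each group is 1 pooled library, so the antibody cannot be told apart from any difference in handling or sequencing between the libraries, and no test between groups was possible. The part of the digestion in the values below was not tested.

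The promoter sequences of 8 members are shown because these genes carry the contrasts described below. They were chosen after their values had been seen. Each line gives the 250 bases before the annotated start of the gene, 5′ to 3′ on the strand of the gene, from RefSeq on GRCm38.p6. In Hspa1a and Hspa1b, the stress-inducible HSP70 genes, and Hsph1, which encodes the HSP110 chaperone, capitals mark a pair of heat shock element units (GAANNTTC or TTCNNGAA). In the AP-1 genes Fosb, Fosl2, Fos and Jun and in Nr4a1, an orphan nuclear receptor, capitals mark the core of the cAMP response element (TGACG, or CGTCA on the other strand) and the EGR site (GCGGGGGCG, or CGCCCCCGC). The Jun window holds neither and so has no capitals.
Hspa1a, chr17:34972157-34972406, minus strand: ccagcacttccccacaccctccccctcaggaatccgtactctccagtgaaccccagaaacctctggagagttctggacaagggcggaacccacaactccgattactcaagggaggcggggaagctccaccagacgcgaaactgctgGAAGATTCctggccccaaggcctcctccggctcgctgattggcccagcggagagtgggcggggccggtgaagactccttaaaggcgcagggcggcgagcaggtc
Hspa1b, chr17:34959239-34959488, minus strand: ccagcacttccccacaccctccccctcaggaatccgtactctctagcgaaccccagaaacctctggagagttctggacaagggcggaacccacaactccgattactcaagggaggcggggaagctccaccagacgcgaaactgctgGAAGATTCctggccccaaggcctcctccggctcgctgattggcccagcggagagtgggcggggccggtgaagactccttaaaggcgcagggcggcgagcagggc
Hsph1, chr5:149636337-149636586, minus strand: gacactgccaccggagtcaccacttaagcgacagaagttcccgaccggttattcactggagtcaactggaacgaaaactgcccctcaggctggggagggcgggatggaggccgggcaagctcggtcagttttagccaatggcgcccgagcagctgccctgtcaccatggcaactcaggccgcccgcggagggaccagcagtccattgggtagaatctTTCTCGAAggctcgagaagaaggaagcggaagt
Fosb, chr7:19310046-19310295, minus strand: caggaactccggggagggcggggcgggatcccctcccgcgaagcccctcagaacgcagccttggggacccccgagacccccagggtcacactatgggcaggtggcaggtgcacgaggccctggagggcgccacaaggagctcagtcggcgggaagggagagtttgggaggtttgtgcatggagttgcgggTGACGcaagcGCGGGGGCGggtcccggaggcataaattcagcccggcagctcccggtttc
Fosl2, chr5:32136222-32136471, plus strand: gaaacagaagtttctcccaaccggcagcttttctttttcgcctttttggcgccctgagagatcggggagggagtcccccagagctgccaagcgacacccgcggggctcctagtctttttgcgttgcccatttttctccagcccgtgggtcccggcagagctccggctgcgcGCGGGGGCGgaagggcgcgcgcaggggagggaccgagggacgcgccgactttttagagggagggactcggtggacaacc
Nr4a1, chr15:101266596-101266845, plus strand: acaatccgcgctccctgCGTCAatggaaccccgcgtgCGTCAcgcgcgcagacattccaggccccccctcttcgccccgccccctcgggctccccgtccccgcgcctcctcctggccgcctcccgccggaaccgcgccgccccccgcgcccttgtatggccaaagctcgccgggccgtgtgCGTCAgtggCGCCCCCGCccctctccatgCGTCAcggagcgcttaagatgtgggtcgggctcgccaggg
Fos, chr12:85473640-85473889, plus strand: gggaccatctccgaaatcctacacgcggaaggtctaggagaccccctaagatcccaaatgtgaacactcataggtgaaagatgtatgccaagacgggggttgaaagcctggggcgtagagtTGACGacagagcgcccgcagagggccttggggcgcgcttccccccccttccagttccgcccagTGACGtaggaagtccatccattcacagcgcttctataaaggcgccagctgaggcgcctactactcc
Jun, chr4:95052223-95052472, minus strand: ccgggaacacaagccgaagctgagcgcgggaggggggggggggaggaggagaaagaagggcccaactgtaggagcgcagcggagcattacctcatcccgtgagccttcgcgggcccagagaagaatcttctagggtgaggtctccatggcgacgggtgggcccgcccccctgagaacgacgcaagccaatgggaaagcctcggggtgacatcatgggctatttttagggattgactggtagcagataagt

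Promoters of 30 of the 37 members were matched, with 38 windows, among 32851 promoters of the same length, and each word was searched on both strands. Those of Fosl1, Egr1, Egr3, Ier2, Nfkbiz, Hspa8 and Hsp90aa1 were not matched and so were not searched. The pair of heat shock units lay in 12.8% of all promoters and in the promoters of 8 members: Hspa1a, Hspa1b, Hsph1, Hspb1 and Dnaja1 of the heat shock group, and Fosl2, Jun and Egr2. The EGR site lay in 2.57% of all promoters and in those of 9 members, namely Fosb, Fosl2, Nr4a1, Klf2, Klf4, Dusp2, Zfp36, Socs3 and Dnaja1. The TGACG core lay in 17.8% of all promoters and in those of 15 members, Fos, Fosb, Junb, Atf3, Nr4a1, Nr4a2 and Nr4a3 among them. The full element TGACGTCA, which holds that core, lay in 1.55% of all promoters and in those of the feedback genes Btg2 and Dusp1. The AP-1 site TGANTCA lay in 6.75% of all promoters and in that of 1 member, Zfp36l1, and the serum response element (CArG box) in 1.47% and in those of Egr2 and Zfp36. A match of letters is a description of the window and not of a bound site. The windows of Hspa1a and Hspa1b were identical at 247 of 250 bases (98.8%).

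The control IgG library held 98174850 UMIs over all barcodes and the antibody library 74117462. By limits of 1000 to 100000 UMIs, 1000 to 8500 genes and 10% mitochondrial RNA per cell, 8770 and 6386 cells were kept, with medians of 5719 and 4660 UMIs, and 19 barcodes were kept in both libraries. Cells were assigned to classes by their own markers, none of which is a member of the module. The names stand for marker-defined, X-like classes and are used below without that ending. The classes held 3032 and 2475 CD8 T cells (control IgG first), 922 and 699 CD4 T cells, 162 and 106 Trdc T cells, 226 and 273 NK cells, 243 and 142 B cells, 1333 and 364 macrophages, 261 and 186 monocytes, 237 and 174 dendritic cells, 266 and 270 fibroblasts and 356 and 363 cancer cells. A further 1098 and 863 cells with T cell receptor complex RNA were called other T cells. This class took T cells without a UMI of Cd4, Cd8, Trdc or Foxp3, and also those with Cd8 together with Cd4 or Foxp3. The 2 kinds were not counted apart, and none of the 10 leading genes of the class was a marker. Each of the other 10 classes had at least 1 of its own markers among its 10 leading genes and none of another class. The class taken as ovarian cancer cells had Dlk1, Lgals7, Cdkn2a, Krt18, Hmga2 and Mid1 among its leading genes, all of them its own markers. Cells were gated on these markers, so the leading genes are no separate check of the names. Mitochondrial RNA was lower with the antibody in all 11 classes (2.32% to 3.58% of UMIs with control IgG, 1.74% to 2.96% with the antibody), and its part in the results was not tested.

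Levels are given as CPM, in which the UMIs of a gene are divided by all UMIs of the cells of that class in that library and scaled to 1000000, with exact Poisson 95% intervals. Each log2 ratio sets the antibody level over that of control IgG, with exact conditional binomial 95% intervals. All intervals cover counting error only, hold nothing of the spread from mouse to mouse or library to library, and understate the error of a gene whose UMIs come from a handful of cells. A gene was taken as measured in a class with at least 20 UMIs over both libraries, and as called where its levels differed at least 2-fold. All 37 members were measured in at least 6 classes, which gave 392 measured pairs of a gene and a class out of 407. The 15 pairs below the limit were Fosl1 in Trdc T, NK, B and dendritic cells, Atf3 in Trdc T cells, Egr2 in Trdc T, NK and B cells, Egr3 in Trdc T and NK cells, and Hspb1 in Trdc T, NK, B and dendritic cells and monocytes.

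Over all classes most members stood higher with the antibody. The log2 ratio was above 0 in 304 of 392 pairs (77.6%), with a median of 0.33, and 27 pairs (6.89%) were at least 2-fold higher against 4 at least 2-fold lower. Over all genes and classes there were 115542 measured pairs, of which 51.4% were above 0, 2.22% at least 2-fold higher and 2.83% at least 2-fold lower, with a median of 0.01. The share of all genes above 0 also differed by class. It was 53.8% in CD8 T cells, 52.0% in CD4 T cells and 51.9% in other T cells. It was 53.1% in Trdc T cells, 54.2% in NK cells and 61.1% in B cells. Macrophages had 51.5%, monocytes 51.0%, dendritic cells 48.9%, fibroblasts 53.4% and cancer cells 40.1%. By group, the factors of the EGR, NR4A and KLF families had 12 of 94 pairs at least 2-fold higher (12.8%) and a median log2 ratio of 0.46. The heat shock genes had 7 of 83 pairs (8.43%) and a median of 0.30. AP-1 genes had 6 of 83 pairs (7.23%) and a median of 0.37. The feedback genes had 2 of 132 pairs (1.52%) and a median of 0.16. Members of a class share its cells, so these pairs are not independent of each other.

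**Figure D1:**
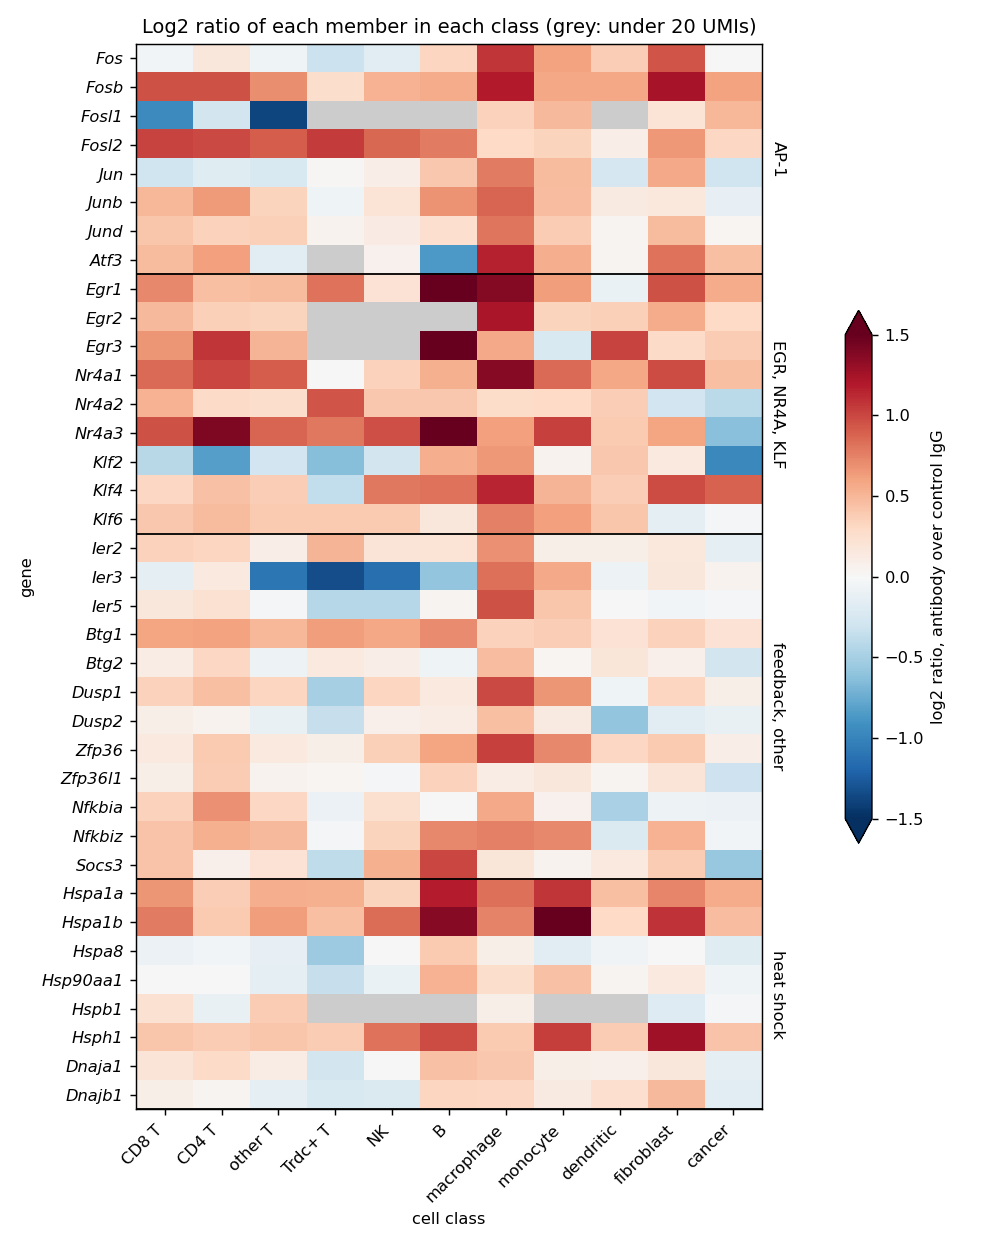
Log2 ratio of the antibody over control IgG for the 37 members (rows, in their 4 groups) in the 11 classes (columns), as colour, with pairs under 20 UMIs over both libraries in grey. The macrophage column is above 0 for all 37 members, while 18 of 37 are above 0 in cancer cells. Of all measured genes, 51.5% were above 0 in macrophages and 40.1% in cancer cells.

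Macrophages held the largest number of 2-fold differences, 8 of the 27. All 37 members were above 0 there, with a median of 0.69, 8 were at least 2-fold higher, where 3.07% of all 11705 measured genes were, and 21 were at least 1.5-fold higher, where 8.84% of all genes were. None was at least 2-fold lower (3.37% of all genes). The member with the highest ratio was Egr1, a zinc finger factor induced by growth signals, at 1.38, and the lowest was Hspa8, the constitutive HSP70, at 0.09.

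Monocytes and fibroblasts came next in the number of members above 0 among the myeloid and stromal classes. In monocytes 34 of 36 members were above 0 with a median of 0.45, 4 were at least 2-fold higher (2.68% of all genes) and 11 at least 1.5-fold (9.51%), from Hspa1b at 1.58 to Egr3 at -0.22, with none at least 2-fold lower (2.94%). In fibroblasts 30 of 37 were above 0 with a median of 0.35, 3 were at least 2-fold higher (2.81%) and 11 at least 1.5-fold (8.64%), from Hsph1 at 1.27 to Nr4a2, an orphan nuclear receptor, at -0.29, with none at least 2-fold lower (3.06%). Dendritic cells stood closer to the background. There 26 of 35 members were above 0 with a median of 0.15, and 1 was at least 2-fold (2.25%) and at least 1.5-fold higher (7.38%), namely Egr3 at 1.01. The lowest in dendritic cells was Dusp2, a nuclear MAP kinase phosphatase, at -0.59, and none was at least 2-fold lower (2.35%).

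B cells had 31 of 34 members above 0 with a median of 0.48, where 61.1% of all genes were above 0 with a median of 0.11. In B cells 6 members were at least 2-fold higher, where 3.59% of all genes were. The share at least 1.5-fold higher in B cells has to be read against a high background, 13 of 34 members where 13.6% of all genes were. The ratios in B cells went from Egr1 at 1.85 to Atf3, a stress-induced AP-1 and CREB relative, at -0.86 with an interval of -1.83 to 0.03, and none was at least 2-fold lower (3.28%).

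The member medians of the T and NK classes were below those of B cells, macrophages and monocytes. In CD8 T cells 31 of 37 members were above 0 with a median of 0.35, 1 was at least 2-fold higher (1.54% of all genes) and 9 at least 1.5-fold (4.74%), from Fosl2 at 1.01 to Fosl1 at -0.95, with none at least 2-fold lower (2.03%). In CD4 T cells 32 of 37 were above 0 with a median of 0.37, 3 were at least 2-fold higher (1.48%) and 9 at least 1.5-fold (5.56%), from Nr4a3 at 1.40 to Klf2, a factor of quiescent and recirculating T cells, at -0.82, with none at least 2-fold lower (1.81%). In other T cells 25 of 37 were above 0 with a median of 0.31, none was at least 2-fold higher (1.12%) and 5 at least 1.5-fold (4.75%), with Fosl2 the highest at 0.91. There 2 members were at least 2-fold lower (3.07%), the stress-induced survival gene Ier3 and Fosl1, the lowest at -1.38 from 16 and 4 UMIs, with an interval of -3.42 to 0.25.

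In NK cells 24 of 33 members were above 0 with a median of 0.21, none was at least 2-fold higher (2.05%) and 5 at least 1.5-fold (8.65%), with Nr4a3 the highest at 0.97. The lowest there was Ier3 at -1.13, the only member at least 2-fold lower in NK cells (1.76%). In Trdc T cells 16 of 32 members were above 0 with a median of 0.01, 1 was at least 2-fold higher (2.88%) and 5 at least 1.5-fold (11.8%), with Fosl2 the highest at 1.05. Ier3 was again the lowest, at -1.33 from 28 and 6 UMIs (interval -2.90 to -0.03), and the only member at least 2-fold lower (3.65%). Cancer cells had 18 of 37 members above 0 and a median of -0.02, where 40.1% of all genes were above 0 with a median of -0.06. None of the members in cancer cells was at least 2-fold higher (1.82%) or lower (3.78%), and 2 were at least 1.5-fold higher (4.59%), with Klf4 the highest at 0.89 and Klf2 the lowest at -0.97. Cancer cells were also the deepest class, with medians of 55249.5 and 55278 UMIs per cell.

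**Figure D2:**
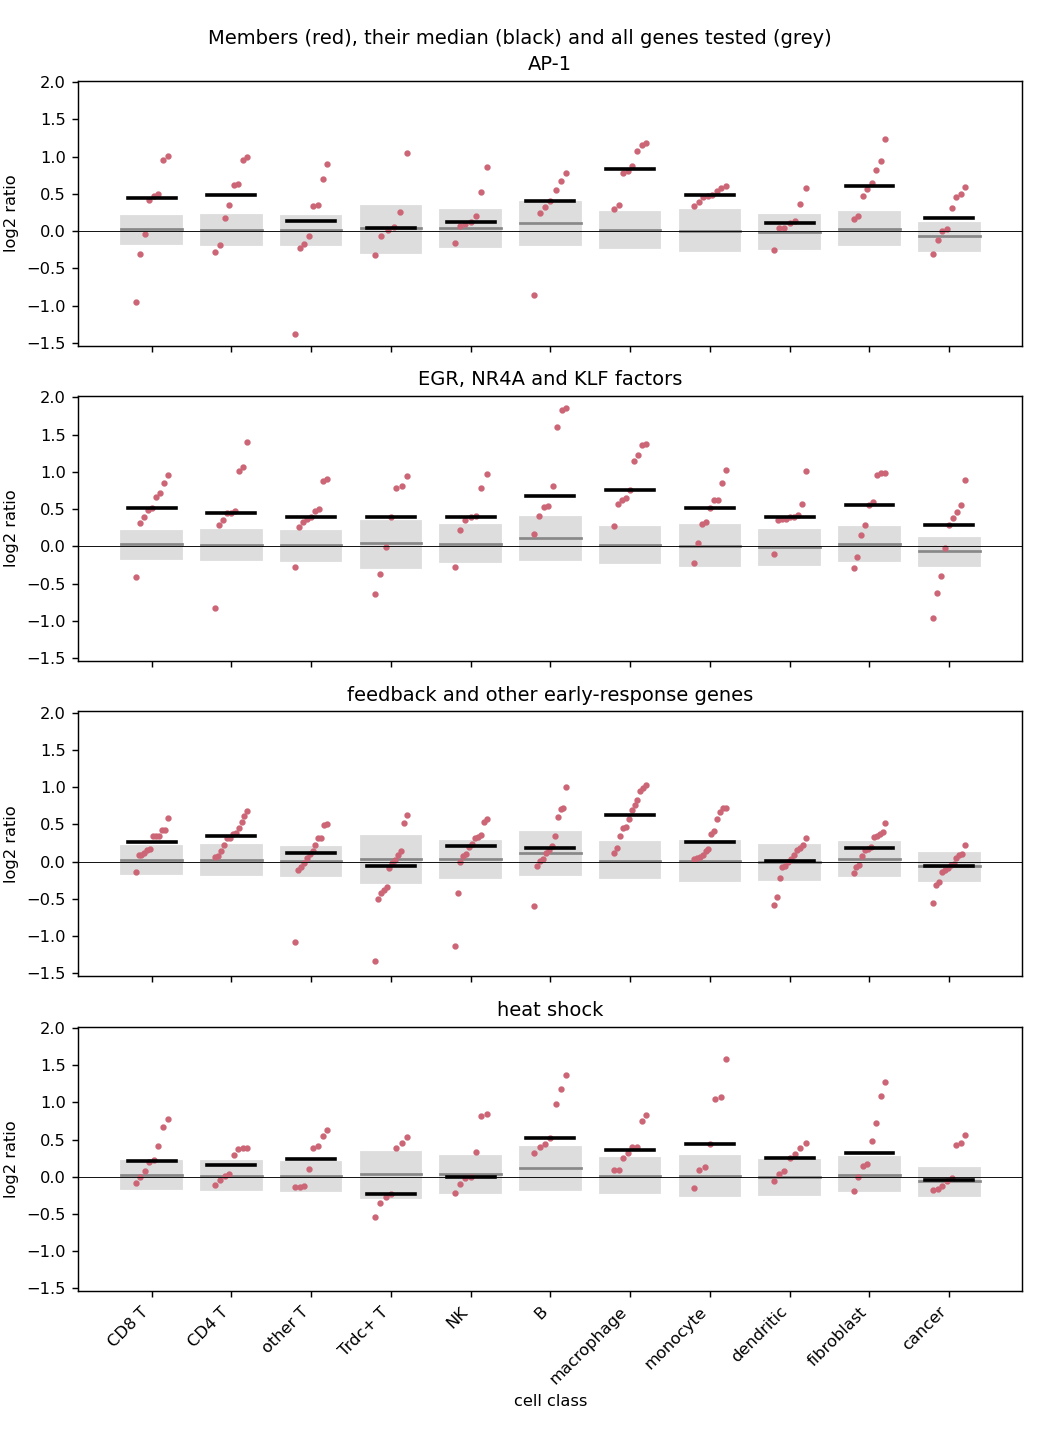
Log2 ratios of the members of each of the 4 groups in the 11 classes, with 1 red point per measured member, the group median as a black line and the interquartile range and median of all measured genes in grey, on an axis of log2 ratio of the antibody over control IgG. The AP-1, EGR and feedback medians are highest in macrophages (0.84, 0.75 and 0.63), and the heat shock median is highest in B cells (0.52).

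The AP-1 family holds the FOS and JUN proteins, which pair to bind DNA, and the related factor ATF3. Their median log2 ratio was highest in macrophages, at 0.84, followed by fibroblasts at 0.61, monocytes and CD4 T cells at 0.48, CD8 T cells at 0.44 and B cells at 0.41. It was lowest in Trdc T cells, at 0.04. Junb, a JUN protein that also controls T helper cell programs, had the most UMIs of the group. In T and NK cells Junb was 519.6 CPM with control IgG and 734 CPM with the antibody in CD8 T cells, 835 and 1301 CPM in CD4 T cells, 880.3 and 1114 CPM in other T cells, 829 and 791 CPM in Trdc T cells and 647 and 744 CPM in NK cells. It was 614 and 979 CPM in B cells, 975 and 1788 CPM in macrophages, 1342 and 1847 CPM in monocytes, 979 and 1072 CPM in dendritic cells, 479 and 536 CPM in fibroblasts and 454 and 417 CPM in cancer cells. Junb was thus higher with the antibody in 9 of 11 classes, most in macrophages (0.88, interval 0.82 to 0.93). It was lower in cancer cells (-0.12, -0.17 to -0.08), and in Trdc T cells the interval of -0.26 to 0.12 holds 0.

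Jund, the JUN protein that most cells keep at a steady level, was higher with the antibody in all 11 classes. It was 461 and 615 CPM in CD8 T cells, 577 and 734 CPM in CD4 T cells, 550.1 and 705 CPM in other T cells, 518 and 539 CPM in Trdc T cells, 619 and 673 CPM in NK cells and 820.3 and 976 CPM in B cells. In macrophages it was 374 and 654 CPM, in monocytes 537 and 702 CPM, in dendritic cells 441 and 454 CPM, in fibroblasts 544 and 756 CPM and in cancer cells 423 and 433 CPM. Its log2 ratio was 0.81 in macrophages (interval 0.72 to 0.89) and 0.03 in cancer cells (-0.01 to 0.08), and its interval lay above 0 in 7 classes.

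The AP-1 genes did not share 1 order of classes. Fosl2, which encodes the FOS relative FRA-2, had the highest median of the group, 0.78. It was 38.5 and 77.5 CPM in CD8 T cells (1.01, interval 0.88 to 1.14), 47.4 and 94.4 CPM in CD4 T cells, 65.7 and 123 CPM in other T cells, 101 and 209 CPM in Trdc T cells and 79.3 and 144 CPM in NK cells. In those 5 T and NK classes its log2 ratio lay between 0.86 and 1.05, while it was 0.30 in macrophages (180.1 and 222 CPM), 0.34 in monocytes and 0.10 in dendritic cells. Jun, the founding JUN protein, had the lowest median, 0.02, and went the other way. In macrophages Jun was 342 and 587 CPM (0.78, 0.69 to 0.87) and in fibroblasts 362 and 538 CPM (0.57). In CD8 T cells it was 115 and 93.3 CPM, at -0.30 with a counting interval below 0 (-0.40 to -0.21). In cancer cells it was also at -0.30 (-0.35 to -0.25).

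Fos, like Jun, had its highest ratios in macrophages and fibroblasts. It was 590.2 and 1241 CPM in macrophages (1.07, interval 1.01 to 1.14), 321 and 618 CPM in fibroblasts (0.95), 864 and 1316 CPM in monocytes (0.61) and 396 and 512 CPM in dendritic cells (0.37). In CD8 T cells it was 110 and 107 CPM (-0.04, -0.14 to 0.05) and in cancer cells 354.5 and 357 CPM (0.01, -0.04 to 0.06). Fosb, whose product pairs with JUN proteins, was above 0 in all 11 classes, from 0.26 in Trdc T cells to 1.24 in fibroblasts (112 and 264 CPM). Atf3 was 149 and 331 CPM in macrophages (1.15) and 6.80 and 9.43 CPM in CD8 T cells (0.47, 0.12 to 0.82). Fosl1, the FRA-1 gene, had 1565 UMIs in all kept cells and was measured in 7 classes, from -1.38 in other T cells to 0.50 in cancer cells, the class with its highest control level.

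**Figure D3:**
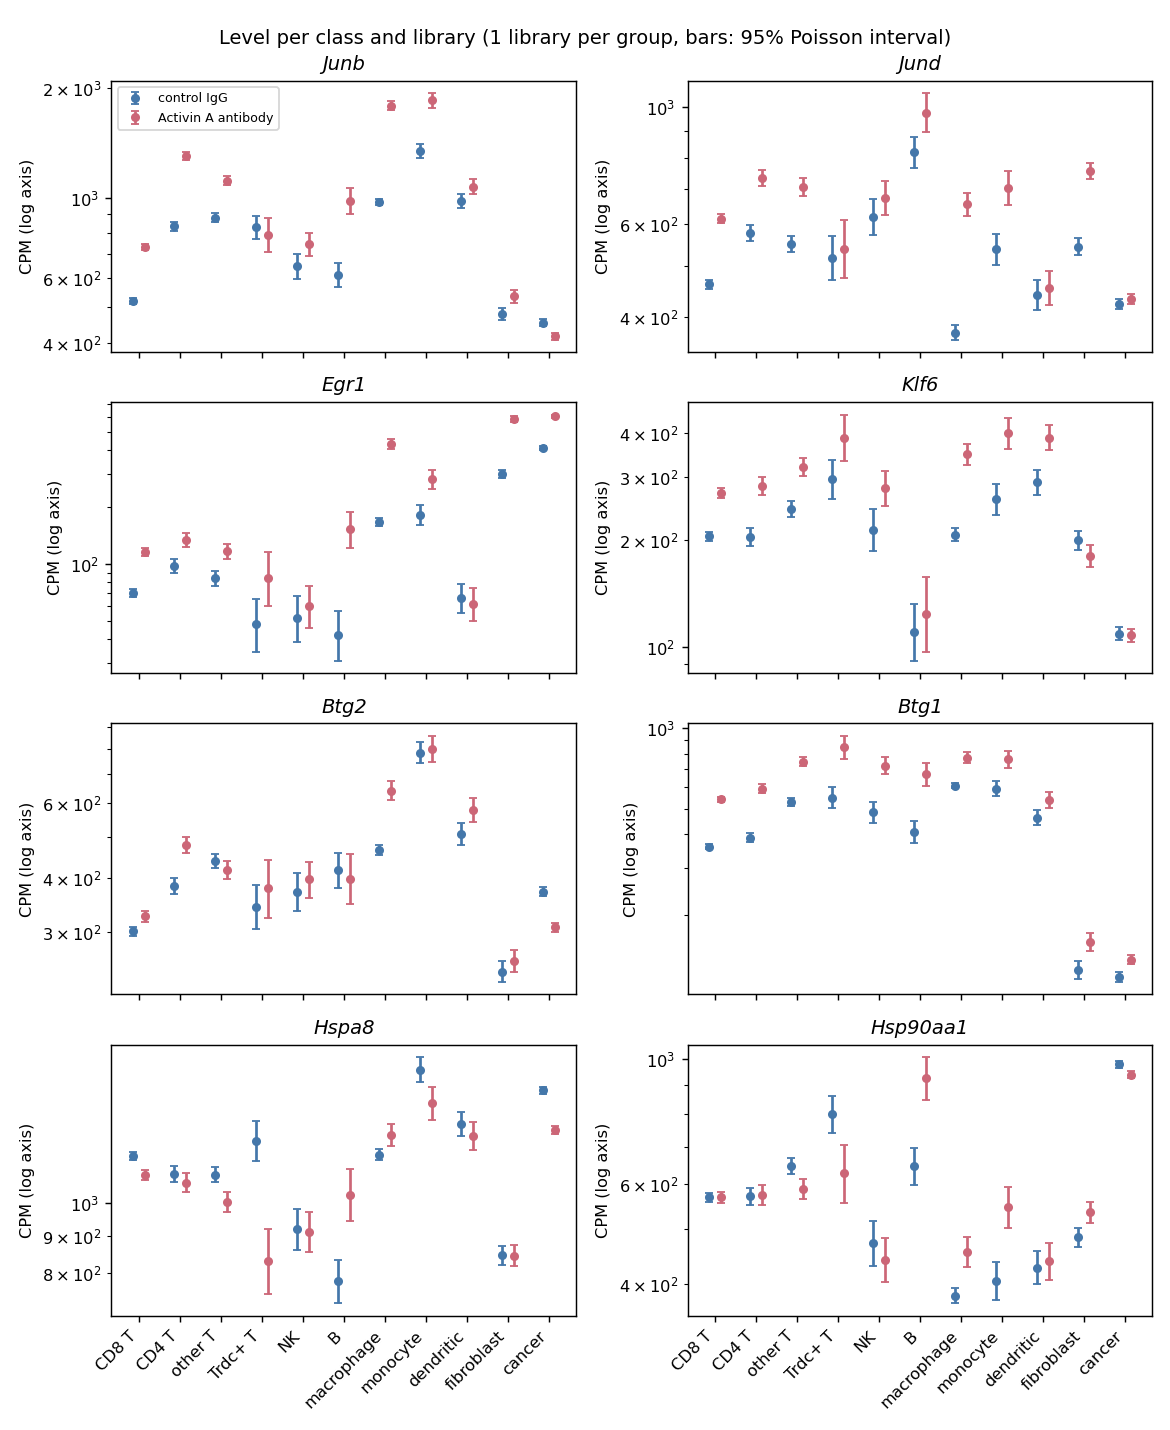
Levels in CPM (log axis) of the 2 members of each group with most UMIs in the 11 classes, for control IgG and the antibody, with exact Poisson 95% intervals as bars. Egr1 stands clearly apart in macrophages (166 and 432 CPM) and fibroblasts (299 and 582 CPM), while the Hspa8 points of the 2 libraries lie close together in macrophages (1163 and 1239 CPM).

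The EGR, NR4A and KLF factors are zinc finger proteins and orphan nuclear receptors. EGR and NR4A genes respond to antigen receptor, growth factor and inflammatory signals, and KLF2 and KLF4 are also known from quiescent cells and from macrophages. Their group median was above 0 in all 11 classes, from 0.29 in cancer cells to 0.75 in macrophages. Egr1 had the most UMIs of this group. It was 70.1 and 115 CPM in CD8 T cells, 97.5 and 133 CPM in CD4 T cells, 84.0 and 116 CPM in other T cells, 48.1 and 84.6 CPM in Trdc T cells, 51.6 and 59.8 CPM in NK cells and 42.2 and 153 CPM in B cells. In macrophages it was 166 and 432 CPM, in monocytes 182 and 280.1 CPM, in dendritic cells 65.8 and 61.2 CPM, in fibroblasts 299 and 582 CPM and in cancer cells 409.5 and 604 CPM. Egr1 was higher with the antibody in 10 of 11 classes, most in B cells (1.85, interval 1.32 to 2.41, from 45 and 86 UMIs) and macrophages (1.38, 1.27 to 1.49). Dendritic cells were the exception, at -0.10.

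Klf6, a factor of cell stress and macrophage activation, was 205 and 270.2 CPM in CD8 T cells, 204 and 283 CPM in CD4 T cells, 244 and 320.3 CPM in other T cells, 296 and 387 CPM in Trdc T cells, 213 and 279.5 CPM in NK cells and 111 and 124 CPM in B cells. It was 207 and 348 CPM in macrophages, 259.8 and 399 CPM in monocytes, 290.0 and 387 CPM in dendritic cells, 199.8 and 180.3 CPM in fibroblasts and 109 and 108 CPM in cancer cells. The log2 ratio of Klf6 lay between 0.39 and 0.48 in all 5 T and NK classes and reached 0.75 in macrophages (0.64 to 0.87). In fibroblasts it was lower, at -0.15, with a counting interval below 0 (-0.28 to -0.01).

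The NR4A receptors differed in level and ratio from class to class. Nr4a2 had ratios of 0.52 in CD8 T cells, 0.28 in CD4 T cells and 0.28 in macrophages, between 0.94 in Trdc T cells and -0.40 in cancer cells. Nr4a3 had the highest median of the group, 0.88. It was 38.4 and 102 CPM in CD4 T cells (1.40, interval 1.17 to 1.64), 32.8 and 63.6 CPM in CD8 T cells (0.96), 15 and 53.2 CPM in B cells from 16 and 30 UMIs (1.83, 0.91 to 2.80), and 44.6 and 68.4 CPM in macrophages (0.62). In cancer cells it was low in both libraries, 3.39 and 2.19 CPM, with a ratio of -0.63 (-1.22 to -0.05). Nr4a1, often used as a readout of antigen receptor signals in T cells, was 48.4 and 86.9 CPM in CD8 T cells (0.84), 58.7 and 118 CPM in CD4 T cells (1.01) and 99.0 and 255 CPM in macrophages (1.36, 1.22 to 1.51). In Trdc T cells it was 62.5 and 62.4 CPM. Egr2 and Egr3, which restrain activated T cells, were measured in 8 and 9 classes, with ratios of 0.29 to 1.22 and of -0.22 to 1.61.

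Klf2 had the lowest median of the group, -0.28, and split the classes. It was below 0 in all 5 T and NK classes and in cancer cells, with intervals below 0 in each, and above 0 in B cells, macrophages, monocytes, dendritic cells and fibroblasts. In CD4 T cells it was 142 and 80.0 CPM (-0.82, -1.01 to -0.64), in CD8 T cells 200.3 and 150.5 CPM (-0.41), in cancer cells 130 and 66.4 CPM (-0.97, -1.06 to -0.87) and in macrophages 258 and 406 CPM (0.66, 0.55 to 0.76). Klf4, its relative with a role in monocytes, was 165 and 365 CPM in macrophages (1.15).

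The group of feedback and other early-response genes, called feedback genes for short, is mixed. Some of its genes code for proteins that end the response. Among these are MAP kinase phosphatases (Dusp1, Dusp2), destabilizers of mRNA (Zfp36, Zfp36l1) and inhibitors of NF-κB (Nfkbia) and of cytokine receptors (Socs3). The group also holds the genes of the anti-proliferative BTG proteins and the early-response genes Ier2, Ier3, Ier5 and Nfkbiz, which are not all of that kind. The median of the whole group was 0.63 in macrophages and between -0.07 and 0.35 in the other 10 classes. Btg2 was 301 and 326 CPM in CD8 T cells, 384 and 478 CPM in CD4 T cells, 439 and 417 CPM in other T cells, 343 and 379 CPM in Trdc T cells, 372 and 397 CPM in NK cells and 417 and 399 CPM in B cells. In macrophages it was 466 and 639.9 CPM, in monocytes 785 and 802 CPM, in dendritic cells 507 and 577 CPM, in fibroblasts 242 and 256 CPM and in cancer cells 372 and 307 CPM. Its ratio was 0.46 in macrophages (0.38 to 0.54) and -0.28 in cancer cells (-0.33 to -0.23).

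Btg1, which holds lymphocytes in a resting state, had the highest median of the feedback genes, 0.50, and was the only one of them with an interval above 0 in all 11 classes. It was 359.9 and 541 CPM in CD8 T cells, 389.6 and 593 CPM in CD4 T cells, 529 and 749 CPM in other T cells, 549.6 and 846 CPM in Trdc T cells, 485 and 724 CPM in NK cells and 409.7 and 671 CPM in B cells. It was 609 and 776 CPM in macrophages, 593 and 763 CPM in monocytes, 463 and 539 CPM in dendritic cells, 124 and 158 CPM in fibroblasts and 117 and 136 CPM in cancer cells. Unlike most members, Btg1 had larger ratios in lymphocytes (0.50 to 0.71) than in the other 5 classes (0.22 to 0.36).

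Ier3 had the lowest median, -0.07, and went both ways. It was 734.5 and 1300 CPM in macrophages (0.82, interval 0.76 to 0.88) and 922.5 and 1365 CPM in monocytes (0.57). In other T cells it was 58.8 and 27.8 CPM (-1.08, -1.41 to -0.76), and in NK cells 32.7 and 15 CPM from 33 and 16 UMIs (-1.13, -2.09 to -0.23). The levels of Ier3 in these lymphocytes were far below those of the myeloid cells of the same libraries, and free RNA was not subtracted from these values. Dusp1 was 519 and 1029 CPM in macrophages (0.99) and 233 and 165 CPM in Trdc T cells (-0.50, -0.91 to -0.11). Zfp36, the gene of tristetraprolin, was above 0 in all 11 classes, from 0.08 in Trdc T cells to 1.02 in macrophages (535 and 1088 CPM). Nfkbia was 335 and 537 CPM in CD4 T cells (0.68) and 592 and 424 CPM in dendritic cells (-0.48, -0.62 to -0.34).

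The heat shock genes differed among themselves. Hspa1a, Hspa1b and Hsph1, whose promoters are shown above, were above 0 in all 11 classes. The medians over classes of Hspa8 and Hsp90aa1, whose promoters were not searched, were -0.06 and 0.01. Hspb1 and Dnaja1, which also hold the pair of heat shock units, had medians of 0.04 and 0.11. Hspa8, which folds new proteins in resting cells and had the most UMIs of all members, was 1159 and 1093 CPM in CD8 T cells, 1095 and 1065 CPM in CD4 T cells, 1093 and 1002 CPM in other T cells, 1216 and 833 CPM in Trdc T cells, 919 and 912 CPM in NK cells and 780.0 and 1026 CPM in B cells. It was 1163 and 1239 CPM in macrophages, 1522 and 1369 CPM in monocytes, 1283 and 1233 CPM in dendritic cells, 847 and 846 CPM in fibroblasts and 1427 and 1258 CPM in cancer cells. Hspa8 was above 0 only in B cells (0.39, interval 0.24 to 0.55) and macrophages (0.09) and lowest in Trdc T cells (-0.55, -0.72 to -0.37).

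Hsp90aa1, the stress-responsive HSP90 form, was 569 CPM in both libraries in CD8 T cells, 572 and 574 CPM in CD4 T cells, 647 and 589 CPM in other T cells, 799 and 628 CPM in Trdc T cells, 472 and 441 CPM in NK cells and 647 and 926 CPM in B cells. In macrophages it was 381 and 456 CPM, in monocytes 405 and 548 CPM, in dendritic cells 427 and 439 CPM, in fibroblasts 484 and 535 CPM and in cancer cells 979 and 939.5 CPM. It was highest in ratio in B cells (0.52) and lowest in Trdc T cells (-0.35, -0.55 to -0.14).

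Hspa1b had the highest median of the group, 0.75, with an interval above 0 in all 11 classes. It was 94.1 and 162 CPM in CD8 T cells (0.78, interval 0.70 to 0.87), 218 and 562 CPM in B cells (1.37), 128 and 385 CPM in monocytes (1.58, 1.34 to 1.84), 99.7 and 211 CPM in fibroblasts (1.08) and 26.0 and 35.7 CPM in cancer cells (0.46). Hspa1a ran from 0.33 in NK cells to 1.18 in B cells (206 and 467 CPM). The Hspa1a and Hspa1b transcripts share 49.3% and 52.3% of their 90-base windows over their whole length and none in their last 500 bases, so reads away from the 3′ end could be lost or split between them, and their separate values are uncertain. Hsph1 ran from 0.38 in CD4 T cells to 1.27 in fibroblasts (23.2 and 55.9 CPM, 0.95 to 1.60). In monocytes Hsph1 rests on 18 and 24 UMIs (1.04, 0.10 to 2.01).

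The remaining heat shock genes stayed closer to 0. Dnajb1, the HSP40 partner of inducible HSP70, ran from -0.23 in Trdc T cells to 0.48 in fibroblasts, and Dnaja1, another HSP40, from -0.27 to 0.44. Hspb1, a small heat shock protein, was abundant in fibroblasts, at 628 and 550.4 CPM (-0.19, -0.27 to -0.11), and was measured in 6 classes with ratios up to 0.38. In Trdc T cells 4 of the 7 measured heat shock genes were below 0, and the group median was -0.23.

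Whether the ratio differs between classes was put as the difference of 2 log2 ratios, with normal intervals for counting error. The classes come from the same pair of libraries, so a shift of equal size in every class drops out of these differences. A shift from handling or depth that differs in size between classes does not drop out, and its part was not tested. The counts below have no background beside them, since the share of all genes that differ in the same way was not computed. By class, the median log2 ratio of all measured genes was 0.01 in macrophages and monocytes, -0.01 in dendritic cells and -0.06 in cancer cells. It was 0.03 in CD8 T cells and fibroblasts, 0.02 in CD4 T cells and 0.04 in NK cells. Macrophages were above cancer cells for 34 of 37 members, with the interval above 0 for 32 and below 0 for none, and a median difference of 0.70. They were above dendritic cells for 33 of 35 members (interval above 0 for 24, below for 0, median 0.60), above monocytes for 26 of 36 (20 above, 1 below, 0.31) and above CD8 T cells for 28 of 37 (24 above, 5 below, 0.34). Macrophages and monocytes shared their main clusters of cells, as given below, so these 2 classes are not sharply separate. Fos was 1.11 higher in macrophages than in CD8 T cells (1.00 to 1.23), while Fosl2 was lower in macrophages, by -0.71 (-0.90 to -0.52). Klf2 differed by 1.62 between macrophages and cancer cells. Fibroblasts were above cancer cells for 31 of 37 members (interval above 0 for 25, below for 1). CD4 and CD8 T cells differed little, with 23 of 37 higher in CD4 T cells and intervals above 0 for 7 and below 0 for 6, and NK cells were above CD8 T cells for 9 of 33.

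The macrophage ratio was also seen within clusters of cells that had been made without the members. In cluster 2 (950 and 223 macrophages, led by Arg1, Cd14 and C1qb) 35 of 37 members were above 0, with a median of 0.84. In cluster 6 (320 and 113 macrophages, led by Retnla, Lyz2 and Mmp12) 28 of 35 were above 0, with a median of 0.40. For all measured genes the medians in these macrophages were -0.02 in cluster 2 and -0.04 in cluster 6. The share of all genes above 0 was not computed within clusters. Most monocytes lay in the same 2 clusters, 122 and 89 in cluster 2 and 128 and 82 in cluster 6 (control IgG first). Among fibroblasts the median was 0.40 in cluster 16 (135 and 187 cells, led by Clec3b, Gsn and Tnxb) and 0.31 in cluster 17 (127 and 74 cells, led by Acta2 and Tagln). CD8 T cells led by Gzmb and Cd8a (cluster 1) had a median of 0.43, and those of cluster 11, led by Dapl1 and Lef1, had 0.00 with 16 of 32 above 0. Other T cells ran from -0.13 in that same cluster 11 to 0.55 in cluster 7, led by Klra8, Klra4 and Ncr1. For all measured genes the medians were 0.0005 and 0.02 in these fibroblasts and 0.03 and 0.02 in these CD8 T cells. In other T cells they were 0.02 in cluster 11 and 0.03 in cluster 7. Over the 22 pairs of a class and a cluster that were read, the median of the members was above that of all genes in 19. These pairs hold no monocytes and no B, NK or Trdc T cells, so the count covers only part of the classes. Some pairs left out were as large as those read, such as 240 and 140 B cells in cluster 12 and 213 and 264 NK cells in cluster 7. The classes held their clusters in unequal shares in the libraries, and macrophage medians with the shares held at those of control IgG are given with the alternatives.

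**Figure D4:**
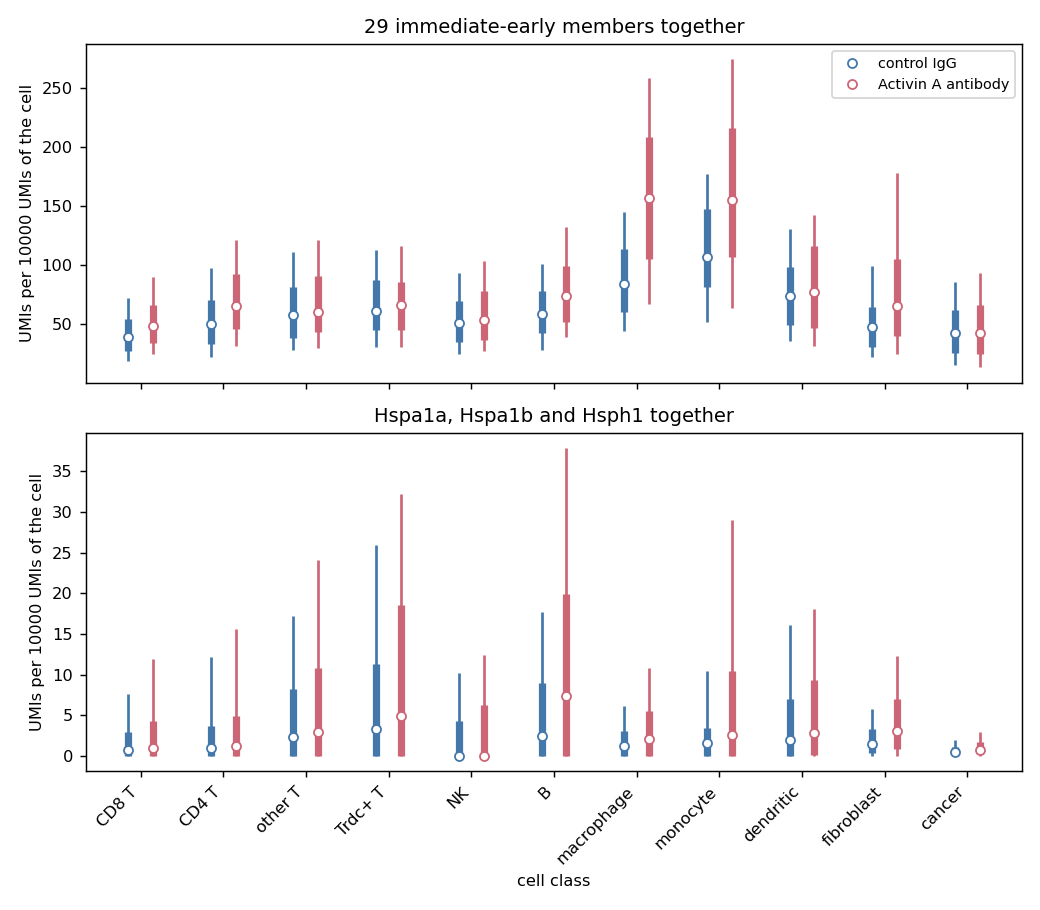
UMIs of the 29 immediate-early members (upper panel) and of Hspa1a, Hspa1b and Hsph1 (lower panel) per 10000 UMIs of a cell, by class and library, with the median, the quartiles and the 10th and 90th percentiles of cells. In macrophages the median goes from 83.8 with control IgG to 156 with the antibody, and in cancer cells it is 42.2 and 41.7.

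Per cell, the macrophage difference covered most of the class. The 29 immediate-early members made up a median of 83.8 UMIs per 10000 in macrophages with control IgG and 156 with the antibody. Of the macrophages of the antibody library, 54.9% (exact binomial 95% interval 49.7% to 60.1%) lay above the 90th percentile of the control IgG cells, against 10.1% of the control IgG cells themselves. With cells thinned to 2000 UMIs each, at the loss of 33 and 12 shallower macrophages, the shares were 55.4% and 9.77%. In monocytes the medians were 107 and 154, and the share was 38.7% (32.8% thinned, against 8.91%). Fibroblasts followed with 28.1% (26.5% thinned, against 10.2%), B cells with 24.6% (25.2%, against 9.57%), CD4 T cells with 21.7% (19.0%, against 9.17%) and CD8 T cells with 20.5% (16.5%, against 8.49%). Dendritic cells had 16.1% (18.4%, against 8.86%), and the share was between 11.3% and 13.9% in NK, other T, Trdc T and cancer cells. In cancer cells it was 12.7%, and 8.61% against 9.86% after thinning. Cells of 1 library are not replicates, and these shares describe the 2 libraries.

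The UMIs of Hspa1a, Hspa1b and Hsph1 together lay more in few cells. The top 5% of cells held between 21.3% and 39.8% of them, against 10.4% to 18.3% for the immediate-early members. These heat shock genes were also much sparser. In macrophages with control IgG their median was 1.25 UMIs per 10000, against 83.8 for the immediate-early members. Sparse counts gather in fewer cells by sampling alone, so this comparison cannot show whether their spread over cells was less even. The share of antibody cells above the 90th percentile of control IgG was 31.9% in fibroblasts, 26.8% in B cells, 25.3% in monocytes and 23.1% in macrophages. After thinning it was 26.7% in B cells (against 8.70% with control IgG), 20.8% in monocytes (against 6.59%), 14.2% in fibroblasts (against 5.30%) and 7.10% in macrophages (against 4.62%). The thinned cells held few UMIs of these genes, with a control 90th percentile of 1 to 6 UMIs.

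The 2 programs were set beside each other by ranking the cells of each class and library on their immediate-early content and splitting them into 4 bins of equal size. In CD8 T cells the level of the 3 inducible heat shock genes was 157 CPM (148 to 167) in the lowest bin and 358 CPM (340.2 to 377) in the highest with control IgG, and 243 and 434 CPM with the antibody. The antibody value was above that of control IgG in each of the 4 bins of CD8 T cells. In fibroblasts it went from 119 to 420.4 CPM with control IgG and from 205 to 704 CPM with the antibody. In cancer cells it was 64.2 and 140.3 CPM with control IgG and 53.1 and 160.4 CPM with the antibody. In CD4 T cells the libraries crossed, since the lowest bin held 178 CPM with control IgG and 380.2 CPM with the antibody, and the highest 599.7 and 406.7 CPM. Monocytes of the antibody library had no such order, with 609.9, 1298, 967 and 579.9 CPM from the lowest to the highest bin. Dendritic cells of that library had none either, at 668, 584, 622 and 650 CPM. With the antibody the bins held 351, 436, 295 and 455 CPM in macrophages and 1244, 842, 1330 and 1348 CPM in B cells. Both libraries rose at every step from bin to bin in CD8 T cells, Trdc T cells and fibroblasts alone. Depth moved with the bins, with medians of 7059.5 UMIs per cell in the lowest and 4303 in the highest bin of CD8 T cells with control IgG, and its part was not tested.

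**Figure D5:**
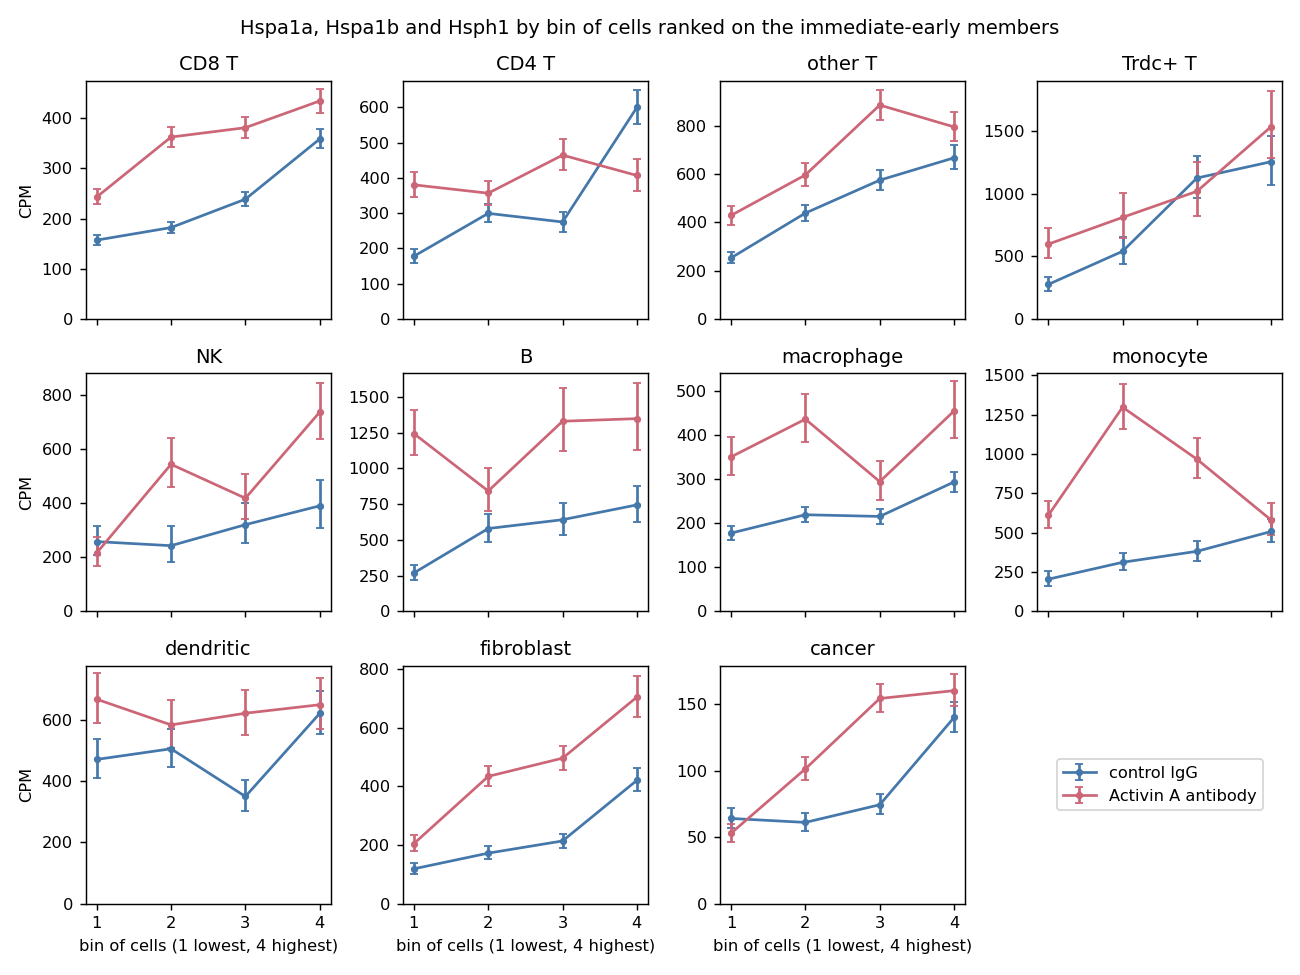
Level in CPM of Hspa1a, Hspa1b and Hsph1 together in the 4 bins of cells ranked by immediate-early content, by class and library, with exact Poisson 95% intervals. Bin 1 holds the cells with the lowest content and bin 4 those with the highest, and in fibroblasts both libraries go up from the lowest to the highest bin (119 to 420.4 CPM and 205 to 704 CPM).

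Lists of neighbouring programs, which hold no member, were read in the same way. A list of 26 other early-response genes had 15 of 261 pairs at least 2-fold higher (5.75%) and 7 lower, with class medians from -0.19 in cancer cells to 0.63 in macrophages. Its highest medians over classes were those of Csrnp1 (0.85), a nuclear factor induced with AP-1 genes, and Tnfaip3 (0.61), the NF-κB feedback gene A20. Its lowest were the cytokines Il1b (-0.56) and Tnf (-0.50). Of 14 genes of MAP kinase feedback, 2 of 107 pairs were at least 2-fold higher (1.87%), and class medians ran from 0.06 to 0.36. Dusp5 (0.70), a phosphatase, and Spry4 (0.55, measured in 2 classes), a receptor kinase inhibitor, were highest, and Dusp8 (-0.24, in 3 classes) and the ETS factor Etv5 (-0.14) lowest. Among 11 factors that drive early genes through serum response and cAMP response elements, 3 of 115 pairs were at least 2-fold higher (2.61%), with Srf (0.41) and Crem (0.21) highest and Creb1 (-0.03) and Elk3 (-0.02) lowest.

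Chaperones outside the module had no pair at least 2-fold higher. Of 27 other cytosolic and mitochondrial chaperone genes, 0 of 273 pairs were at least 2-fold higher and 1 lower, with class medians from -0.07 to 0.23. Hspb8 (0.44, measured in 1 class) and Dnaja4 (0.27) were highest, and Cryab (-0.68, in 5 classes), a small heat shock protein, and Bag1 (-0.16), an HSP70 cochaperone, lowest. Of 17 genes of the endoplasmic reticulum, 0 of 186 pairs were at least 2-fold higher, with class medians from -0.42 in B cells to 0.24 in macrophages. Ddit3 (0.37) and Xbp1 (0.28), factors of the unfolded protein response, were highest, and Sdf2l1 (-0.40) and Dnajb9 (-0.32) lowest.

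Oxidative stress and metal response genes went in both directions, with 8 of 111 pairs (7.21%) at least 2-fold higher and 4 lower. Their class medians ran from -0.59 in B cells to 0.41 in macrophages. The metallothionein Mt2 (0.38) and Nqo1 (0.25, in 2 classes) were highest, and Prdx1 (-0.21) and Sod2 (-0.10) lowest. Of 13 genes chosen as steady references, 47 of 143 pairs (32.9%) were above 0. Ywhaz and Tbp were highest (0.20 each) and the glycolytic genes Gapdh and Pgk1 lowest (-0.39 each). In macrophages 51.5% of all genes were above 0. There 25 of 26 other early-response genes, 17 of 17 endoplasmic reticulum genes and 10 of 11 measured oxidative stress genes were above 0. For MAP kinase feedback it was 8 of 10 and for the serum response and cAMP response factors 9 of 11. Other cytosolic and mitochondrial chaperones had 15 of 25 above 0 and the references 6 of 13. Neat1, a nuclear RNA that also marks stressed or broken cells, was higher with the antibody in 7 classes, among them macrophages (421 and 591 CPM) and monocytes (646 and 817 CPM). It was lower in 4, namely dendritic cells (474 and 401 CPM), cancer cells (338 and 318 CPM), Trdc T cells (171 and 163 CPM) and fibroblasts (192 and 189 CPM). Malat1, another nuclear RNA, was lower with the antibody in macrophages (9548 and 9271 CPM), dendritic cells (11975 and 11451 CPM) and cancer cells (3226 and 3029 CPM). In the other compared classes it was higher, among them monocytes (8011 and 9285 CPM). Haemoglobin RNA was measured in macrophages alone, at 0.922 and 309 CPM, and 725 of the 736 UMIs with the antibody lay in 1 of 364 cells. The number of 2-fold pairs without the cells that hold a haemoglobin UMI is given with the alternatives.

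Free RNA was read from barcodes under 100 UMIs, with 6.39% and 6.23% of each library's UMIs. All 37 members were higher there with the antibody, with intervals above 0, from Klf2 at 0.24 to Fosb at 1.56 (51.5 and 151 CPM). Free RNA as a whole was shifted in the same direction, since 88.8% of 12675 genes were above 0, with a median of 0.44 and 9.35% at least 2-fold higher. The median of the members was 0.70, and 6 of 37 were at least 2-fold higher. The estimated share of free RNA in the cells of a class lay between 2.46% and 8.00%, and in macrophages it was 6.72% with control IgG and 6.10% with the antibody. With the expected free RNA subtracted, the macrophage medians were 0.85 for AP-1, 0.75 for EGR, NR4A and KLF factors and 0.63 for feedback genes.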

How the data were processed

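Single-cell RNA libraries of 1 control IgG pool and 1 Activin A neutralizing antibody pool were assigned to groups by their titles. The count files, as deposited by the authors, hold raw UMI counts for each gene in each barcode, unfiltered and not normalized. They were made with Cell Ranger version 7.0.1 on mm10 per the submitters' processing notes, while the file headers name version 4. Control IgG held 98174850 UMIs and the antibody library 74117462. Cells were kept by the study's limits (1000 to 8500 genes, 1000 to 100000 UMIs, at most 10% mitochondrial UMIs), and doublets were kept.

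Each cell was given a class from its own markers. T and NK cells were split by UMIs of Cd4, Cd8, Foxp3, Trdc and NK genes, and other cells took the class with the highest mean of its 3 highest markers, at least 1.5 times that of the next class and with at least 2 markers detected. Monocytes were set apart afterwards, from cells with no UMI of Cd3, Trac or a marker of NK, B or dendritic cells. They needed at least 2 monocyte markers, a UMI of Ly6c2, Chil3 or Vcan, and at least 1.5 times the mean of any macrophage, neutrophil, stromal, muscle or cancer class. Classes with at least 50 cells in both libraries were compared. Left out were neutrophils, regulatory T cells, endothelial and skeletal muscle cells and 531 and 386 unassigned cells. UMIs were summed per class and library. With 1 library per group there was no test: exact Poisson, Clopper-Pearson and conditional binomial 95% intervals (scipy 1.17.1) cover counting error only. Clusters (scanpy 1.11.5, leidenalg 0.10.2, scikit-learn 1.9.0) used 2000 variable genes without the members, 30 principal components, 15 neighbours and resolution 1. Scripts (Python 3.11.15, numpy 2.4.6, pandas 2.3.3, matplotlib 3.10.9) were tested on simulated data.

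Levels in every class were given for the 2 members of each group with most UMIs. Others were named where they had the highest or lowest median of their group or ratio in a class, or in the other lists the 2 highest and 2 lowest medians. Further members were named after their values were seen, as were Hspa1a, Hspa1b and Hsph1 as a trio. The members, groups, markers and lists were chosen with earlier results of these data known. Alternatives changed the classes, the filters on cells and counts, the scaling, the weighting of cells, the free RNA and the fold.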

Additional observations from a re-analysis of the deposited data

Results flagged for a closer look

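More members than those named here had counting intervals above 0 in some classes and below 0 in others. The 3 named are those that were at least 1.5-fold higher in 1 class and at least 1.5-fold lower in another, with both intervals clear of 0. Nr4a3 had a log2 ratio of the antibody over control IgG of 1.83 in B cells and -0.63 in cancer cells. Klf2 had 0.66 in macrophages and -0.97 in cancer cells. Ier3 had 0.82 in macrophages and -1.33 in Trdc T cells. For Klf2 the difference of macrophages from cancer cells was 1.62 (interval 1.48 to 1.76, counting error only). Each class is 1 sample in each library, so the differences between classes were not tested over replicates. Barcodes under 100 UMIs, used here only as the profile of free RNA and for its subtraction, held the members together at 5372 CPM with control IgG and 8292 CPM with the antibody, a log2 ratio of 0.63 (interval 0.60 to 0.65).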

How the results depend on the processing

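No paired analysis was possible because only 1 pooled library stands for a group, and for the same reason no library could be left out in turn. The number of pairs at least 2-fold higher was 6 for AP-1 genes, 12 for EGR, NR4A and KLF factors, 2 for feedback genes and 7 for heat shock genes. It stayed within 1.5 times these counts for AP-1, EGR and heat shock genes in all alternatives but the 1.5-fold limit, where the counts were 24, 35, 17 and 16 and 7.51% of all pairs of genes and classes were that much higher. For feedback genes it became 4 with cells that hold no UMI of another class's markers, and 4 with clusters weighted as in control IgG. It was also 4 with the counts of each cell of at least 2000 UMIs scaled to 2000. That scaling drew no UMIs at random and weighed cells equally, as the mean over cells of CPM also does. The number became 1 with the median of all genes set to 0. It was also 1 without cells that hold a haemoglobin UMI, a setting chosen after the data were seen. The gate on markers of other classes left no cancer class, so it compared 10 classes. For each group median, an interval was formed from the medians of the lower and of the upper interval bounds of its members. Of 656 comparisons of a group median in a class with its value in an alternative, 646 stayed within that interval. Another 9 left it, and 1 whose interval was clear of 0 turned direction. That was the AP-1 median in other T cells, at -0.0134 as a mean over cells of CPM against 0.14. Changes of sign where the interval held 0 were not counted as turns. An example is the AP-1 median in Trdc T cells, 0.04 as reported and -0.07 with no UMI of another class's markers. The 1.5-fold limit leaves every median as it was. With clusters weighted as in control IgG, macrophage medians were 0.91 for AP-1, 0.86 for EGR, NR4A and KLF factors and 0.71 for feedback genes. Macrophages had the highest AP-1 and feedback medians in every alternative. The highest EGR, NR4A and KLF median passed to B cells in 5 alternatives. These were at most 5% mitochondrial UMIs, no UMI of another class's markers, doublet scores, scaling to 2000 UMIs and at least 5 UMIs. The highest heat shock median passed from B cells to monocytes in 2, at 0.43 with the median of all genes set to 0 and at 0.74 with at least 5 UMIs. The causes were not tested. Depth limits Trdc T, NK and B cells most, where 12 of the 15 pairs under 20 UMIs lie.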

Other observations

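Some stress and inflammatory genes outside the module had ratios beyond the range of the members (-1.38 to 1.85), and they are named here after their values were seen. Hmox1, the haem-degrading enzyme, had a log2 ratio of 2.98 in dendritic cells and -0.73 in other T cells. The neutrophil-attracting chemokine Cxcl2 was at 1.41 in monocytes and -2.24 in CD4 T cells. The cytokine genes Il1b and Tnf, which activated myeloid cells induce along with AP-1 genes, were at -2.93 and -1.65 in fibroblasts. Within that range, Dusp5, a phosphatase of ERK kinases, was above 0 in all 11 classes, from 0.11 in B cells to 0.93 in CD4 T cells. These values have no replicate check. Free RNA was not subtracted from them, and its part in them was not tested. Its estimated share was 7.36% with control IgG and 8.00% with the antibody in fibroblasts, and 4.58% and 3.67% in CD4 T cells. Macrophages made up 15.2% of the cells kept with control IgG and 5.70% with the antibody.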
